A study of Rattus norvegicus with 16 samples.

Results

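The first day of dosing was represented by 2 pooled arrays of the renal outer medulla, chosen by their labels from the 16 arrays of the series. One array held RNA pooled from 3 male Sprague-Dawley rats given corn oil by gavage (the vehicle). The other held RNA pooled from 3 rats given 2-amino-4-nitrophenol (ANP) at 750 mg/kg/day in corn oil. The rats were 5 weeks old at the start, and the hours between the dose and the removal of the kidney are not given in the sources used here. The other 14 arrays were a vehicle pool and an ANP pool of 3 animals each at day 7, and 3 single-animal arrays per group at days 14 and 28. A pool of 3 animals gives 1 value per gene and no spread between animals, so the day 1 comparison was made of ratios, without a test.

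ANP is an aromatic nitro compound used in hair dyes. The outer medulla holds the straight part of the proximal tubule (S3), the thick ascending limb, the collecting ducts and the vessels between them. The S3 segment carries many transporters of organic anions, burns fatty acids, and is a common place of injury by chemicals and by poor blood supply. Injured tubule cells are known to make Havcr1, to switch on immediate early transcription factors, and to release chemokines and ligands of the epidermal growth factor receptor. Cells that meet reactive chemicals free the transcription factor NRF2, which drives genes of glutathione and quinone handling. Misfolded protein frees HSF1, which drives the heat shock genes, and several kinds of stress act through ATF4, the factor of the integrated stress response.

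Level means here the log2 of an array's processed signal minus the log2 of that array's 75th percentile, so 0 is the 75th percentile of the array. The log2 ratio is the level in the ANP pool minus that in the vehicle pool. About 70% of probes were well above background on each day 1 array (69.6% in both), and no spot was saturated. The 75th percentile of signal was 1117 in the vehicle pool and 1324 in the ANP pool, and all 4 pools of days 1 and 7 lay on 1 slide. Umod, the uromodulin gene of the thick ascending limb, and Slc7a13, a cystine and aspartate transporter of S3, were well above background in both pools, at 8.90 and 8.61 for Umod. The number of arrays limits the precision that can be stated.

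Of 12407 genes measured at day 1, 599 (4.83%) were higher in the ANP pool by 2-fold or more and 614 (4.95%) were lower by as much. The median log2 ratio over all genes was -0.04, and the 5th and 95th percentiles were -0.99 and 0.97. The upper side reached further. At least 8-fold apart were 83 higher and 36 lower genes, and at least 16-fold 32 and 11. The vehicle pools of days 1 and 7 gave a yardstick without treatment: 295 genes (2.40%) were 2-fold or more higher, and 170 (1.38%) lower by as much, at day 1 than at day 7. The day 7 pools differed in 257 genes (2.12%) upward and 306 (2.53%) downward with ANP. Single vehicle animals of one group differed by 2-fold in 2.91% to 5.398% of genes, against 9.78% between the day 1 pools. With normexp background correction and quantile scaling the day 1 counts were 351 higher and 314 lower.

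**Figure D1:**
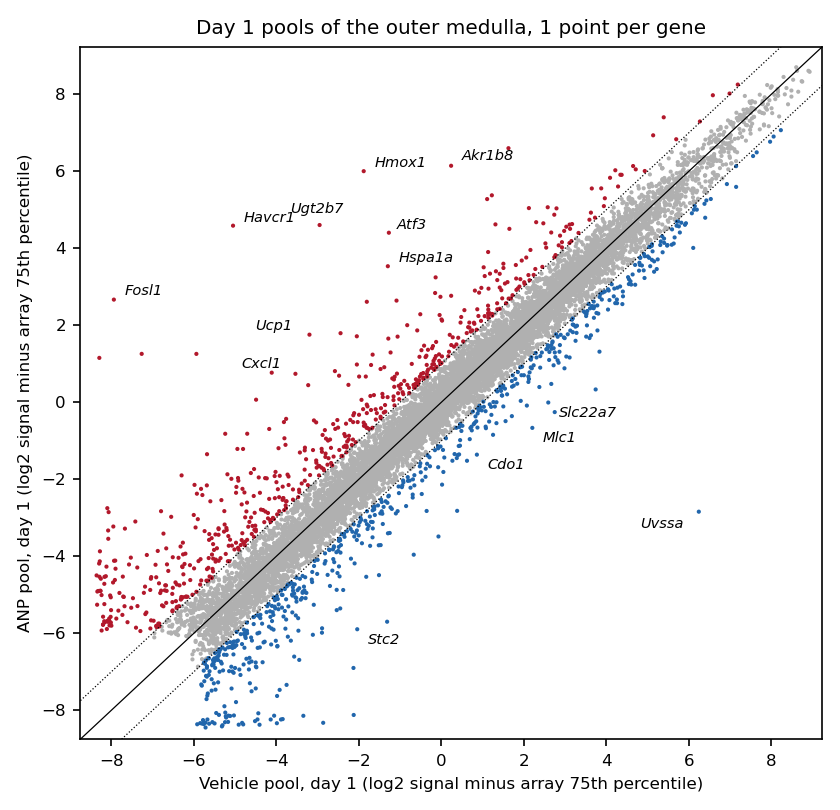
Level of each of 12407 genes in the vehicle pool (x axis) and the ANP pool (y axis) of day 1, both as log2 signal minus the array's 75th percentile. Red points are at least 2-fold higher with ANP, blue points at least 2-fold lower, and dotted lines mark 2-fold. Havcr1, Hmox1 and Fosl1 stand far above the line, and Uvssa stands alone below it.

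Since the vehicle side was a single pool, each ANP value was also set against all 8 vehicle arrays of the series. Of the higher genes 539 (4.34% of all genes) also lay above every vehicle array, and of the lower genes 424 (3.42%) lay below every one. The vehicle pool itself was the unusual array for 93 lower and 18 higher genes, whose ANP value lay inside the range of the other 7 vehicle arrays. Uvssa, a gene of DNA repair, was the extreme case. Its level was 6.24 in the day 1 vehicle pool, -2.84 in the ANP pool and between -3.03 and -2.46 in the other 7 vehicle arrays. Its log2 ratio of -9.08 therefore rests on 1 spot of 1 array, and a second Uvssa probe gave -0.29. Stc2, a secreted glycoprotein hormone, was the next: -2.04 in the vehicle pool, -5.89 in the ANP pool and -7.58 to -4.11 in the other vehicle arrays. Spmap2l and Prox1 showed the same arrangement, with day 1 vehicle pool levels of -2.89 and -3.65 above the other 7 arrays.

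Probes of the same gene gave a check within the pools. For 6530 genes with several measured probes the median SD among probes was 0.10 on the log2 ratio. Of 256 such genes that were 2-fold higher, 247 had every other probe of the same sign, and for 192 every other probe was also past 2-fold. Of 208 lower genes the numbers were 196 and 139. Among all genes with several probes, 77.7% had probes of a single sign. The exceptions among the called genes included Hsd3b2, a steroid dehydrogenase, at 1.75 by one probe and -2.88 by another. Plscr5 was at -2.57 and 3.02, so no direction is given for either.

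Tubular injury and repair genes had a median log2 ratio of 1.18 over 35 measured of 38 listed genes. Of them 18 were at least 2-fold higher and 1 lower, against 4.83% and 4.95% of all genes, and all 18 lay above every vehicle array. The day 1 counts of every list below are to be read beside these shares. Havcr1, the gene of kidney injury molecule 1, was at -5.05 in the vehicle pool and 4.59 in the ANP pool. The 8 vehicle arrays ranged from -5.05 to -2.89, and the ratio was 794-fold. Tnfrsf12a, the receptor of the cytokine TWEAK, was at 1.31 and 4.62, and a second probe gave a log2 ratio of 3.29 beside 3.31. Krt20, a keratin gene, was not well above background in the vehicle pool and at -3.86 in the ANP pool, at least 4.56-fold higher. Every one of these ANP values stood above all vehicle arrays.

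Lcn2, the neutrophil gelatinase-associated lipocalin, was at -1.06 and 1.71, and Plaur, the urokinase receptor, at -4.27 and -1.97. Cd44, a hyaluronan receptor, was at -1.70 and 0.97, although its other probes ran from 0.51 to 2.94. Spp1, or osteopontin, was at 5.39 and 7.40 and Timp1, an inhibitor of matrix proteases, at 0.92 and 2.85. Ccn2, the connective tissue growth factor gene, was the 1 lower member, at -1.30 on the log2 ratio (named after its value was seen). Its ANP level was not below every vehicle array. Other markers of damaged tubules were not past 2-fold: Vim, the vimentin gene, was at 0.24, Krt8 at 0.15, Vcam1 at 0.25 and the complement gene C3 at 0.16.

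NRF2 targets were measured for 39 of 40 listed genes and had a median of 0.82. Of them 19 were at least 2-fold higher and 0 lower, against 4.83% and 4.95% of all genes. All 19 lay above every vehicle array. Hmox1, haem oxygenase, stood at -1.88 in the vehicle pool and 6.0 in the ANP pool, a 236-fold difference, with vehicle arrays from -2.09 to 1.19. Akr1b8, an aldo-keto reductase with close relatives whose signal a probe may share, was at 0.24 and 6.14. Slc7a11, the cystine importer, was at -5.24 and -0.82, with other probes at 2.45 and 3.20 beside its log2 ratio of 4.42.

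The export pump Abcc2 was at 1.11 and 5.28, and the sulfiredoxin Srxn1 at 1.22 and 5.37. Nqo1, a quinone reductase, was at -1.09 and 2.64, and Pir, an iron-binding nuclear protein, at -0.15 and 2.84. Each had a second probe with a log2 ratio within 1 of the first where one was measured. Other members were not past 2-fold, among them both subunit genes of the enzyme that starts glutathione synthesis and both ferritin chains: Gclc was at -0.51, Gclm at -0.20, Gsr at 0.57, Fth1 at 0.10 and Ftl1 at -0.15. Keap1, the inhibitor of NRF2, was at -0.03.

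Promoter sequence was read for 32 of these genes from RefSeq (GRCr8, 250 bases before to 50 after the start). The cores TGACNNNGC and TGAGNNNGC of the antioxidant response element were searched on both strands. Either was present in 16 of the 32 (50%), against 27.1% of 33469 promoters of the same length. It was in 9 of the 16 members that were 2-fold higher and in 7 of the other 16. Alone, TGACNNNGC was in 34.4% of members against 12.1% of all promoters, and TGAGNNNGC in 18.8% against 17.2%. The stretches of 60 bases below show a core in 3 of the members with the largest ratios. They are read in the direction of the gene, with the core in capitals. They lie at chr3:161064668-161064727 (plus strand) for Srxn1, chr4:63964325-63964384 (plus strand) for Akr1b8 and chrX:33851130-33851189 (minus strand) for Pir, all upstream of the start. A match describes the letters only.
Srxn1: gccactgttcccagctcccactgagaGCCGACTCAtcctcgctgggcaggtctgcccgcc
Akr1b8: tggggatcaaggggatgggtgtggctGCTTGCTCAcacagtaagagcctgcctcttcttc
Pir: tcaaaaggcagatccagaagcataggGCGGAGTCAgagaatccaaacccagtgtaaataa

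Heat shock genes had a median of 0.57 over 28 measured of 30 listed genes. Of them 9 were at least 2-fold higher and 0 lower, against 4.83% and 4.95% of all genes. All 9 lay above every vehicle array, and 27 of the 28 ratios were above 0. Zfand2a, an arsenite-inducible regulator of the proteasome, stood at 1.63 in the vehicle pool and 6.60 in the ANP pool, with vehicle arrays between 1.61 and 2.04. Its second probe gave a log2 ratio of 3.47 beside 4.97. Hspa1a, the inducible HSP70, was at -1.30 and 3.53, and its near-identical paralog may share the signal. Hsph1, an exchange factor of HSP70, was at -1.28 and 1.65.

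The small heat shock proteins followed. Hspb1 was at 1.5 and 3.60 and Hspb8 at -3.28 and -1.48. Hsp90aa1, the inducible HSP90, was at 5.13 and 6.93 with other probes at 1.90 and 2.20 beside its log2 ratio of 1.80. Bag3, a co-chaperone of HSPB8, was at 3.17 and 4.63. Constitutive members stood nearer 0, with Hspa8 at 0.29 and Hspd1, the mitochondrial HSP60, at 0.26, and the factor Hsf1 itself was at 0.26.

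Heat shock elements were searched in the same windows as facing pairs of the unit, GAANNTTC and TTCNNGAA, which may overlap one another. Either was found in 15 of 23 members with a promoter (65.2%), in 6 of the 8 that were 2-fold higher and in 9 of the other 15, against 15.9% of all promoters. The 5 stretches below are those of members named above, with the pairs in capitals. They lie at chr12:10427308-10427367 (plus strand, Hsph1), chr12:26432387-26432446 (minus strand, Hspb1), chr12:45837248-45837307 (plus strand, Hspb8), chr1:192533302-192533361 (plus strand, Bag3) and chr12:20275214-20275273 (plus strand, Zfand2a) of GRCr8. In Hsph1 2 pairs overlap, and in Hspb1 there are 2 apart.
Hsph1: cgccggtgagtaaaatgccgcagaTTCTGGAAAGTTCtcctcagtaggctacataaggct
Hspb1: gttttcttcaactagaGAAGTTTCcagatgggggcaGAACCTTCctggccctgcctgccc
Hspb8: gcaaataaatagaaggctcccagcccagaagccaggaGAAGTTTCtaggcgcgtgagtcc
Bag3: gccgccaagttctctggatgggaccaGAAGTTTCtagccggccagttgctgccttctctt
Zfand2a: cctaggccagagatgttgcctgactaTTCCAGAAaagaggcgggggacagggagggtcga

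Immediate early transcription genes had a median of 1.03 over 33 measured of 35 listed genes. Of them 17 were at least 2-fold higher and 0 lower, against 4.83% and 4.95% of all genes. All 17 lay above every vehicle array. Fosl1, a partner of JUN in the factor AP-1, was not well above background in the vehicle pool and stood at 2.67 in the ANP pool. Against the lowest signal well above background on the vehicle array it was at least 420-fold higher. A second probe gave a measured log2 ratio of 10.702, and with each dim gene at its bound the list's median was 0.99. Fos was at -4.70 and -0.82, Egr2 at -5.18 and -1.87, and Egr1 at -1.83 and 0.67. Myc, which drives growth, was at 0.24 and 2.77.

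Not all early genes were high. Nr4a1 was at 0.02, Nr4a2 at -0.06 and Dusp1 at 0.33 on the log2 ratio, while Dusp5, a phosphatase of ERK, was at 2.16 and 3.96. Maff, a small MAF protein, was at -3.09 and -0.47, and a second probe gave 2.40 beside 2.62. The cyclic AMP element TGACGTCA occurred in 5 of 23 members with a promoter (21.7%) against 1.83% of all promoters. The AP-1 site TGANTCA occurred in 0 of the 23 against 7.33%, which says only that these letters are not in these windows. The Maff stretch, at chr7:112792710-112792769 on the plus strand of GRCr8, is shown with the element in capitals because Maff was the member with the largest ratio to hold one.
Maff: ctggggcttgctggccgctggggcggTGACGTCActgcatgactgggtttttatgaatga

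Ligands of the epidermal growth factor receptor family differed among themselves. Of 11 measured of 12 listed genes, 4 were at least 2-fold higher, all ligands, against 4.83% of all genes. The list median was -0.17. Ereg, or epiregulin, was not well above background in the vehicle pool and was at least 7.07-fold higher. Areg, or amphiregulin, was at -2.05 and 1.71, Hbegf at -2.11 and -0.28 and the neuregulin gene Nrg1 at 0.48 and 2.21. Egf, made by the thick ascending limb, was at 5.79 and 5.01, and the ligands Tgfa and Btc had log2 ratios of -0.27 and -0.38. The receptors gave log2 ratios of 0.18 for Egfr, -0.53 for Erbb2, -0.92 for Erbb3 and -0.17 for Erbb4, none past 2-fold.

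Integrated stress response genes had a median of 0.49 over 31 measured of 32 listed genes. Of them 10 were at least 2-fold higher and 2 lower, against 4.83% and 4.95% of all genes. Atf3 stood at -1.27 in the vehicle pool and 4.4 in the ANP pool, with vehicle arrays from -1.51 to -0.78. The pseudokinase Trib3 was at -4.17 and -0.69, and the stress cytokine Gdf15 at -0.14 and 3.24, with a second probe of the same log2 ratio, 3.38. Ddit3, or CHOP, was at 2.58 and 5.06, and Ppp1r15a, which reverses the block of translation, at 1.03 and 3.5. The folate enzyme Mthfd2 was at -2.05 and 0.98, and the proline enzyme Pycr1 at -5.33 and -2.54. The genes of serine synthesis did not share this, with Phgdh at -0.12 and Psph at -0.07. Stc2, 1 of the 2 lower members, is the gene whose vehicle pool stood apart. The other, named after its value was seen, was Cth, which makes cysteine from cystathionine, at -1.63.

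Cytosolic aminoacyl-tRNA synthetases, which charge tRNA and respond to ATF4, had a median of 0.54 over 19 of 20 genes. In 18 of the 19 the ratio was above 0, but 1, Nars1 at 1.21, was past 2-fold. Endoplasmic reticulum chaperones had a median of 0.06 over 22 of 25 genes, with 0 past 2-fold in either direction. Among them Hspa5, or BiP, was at 0.52, Hsp90b1 at 0.07 and Pdia4 at 0.07. CHOP and Atf3 were thus high in a pool in which the chaperones of the endoplasmic reticulum were near the median of all genes.

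Cytokines, chemokines and adhesion genes had a median of 0.70 over 29 measured of 35 listed genes. Of them 13 were at least 2-fold higher and 0 lower, against 4.83% and 4.95% of all genes. Of the 13, 11 lay above every vehicle array. Cxcl1, which draws neutrophils, was at -3.54 and 0.74, with vehicle arrays from -5.06 to -3.32. Its relative Cxcl2 was at -5.26 and -2.83, Ccl2, which draws monocytes, at -2.25 and 0.45. Ccl7 was not well above background in the vehicle pool and was at least 3.45-fold higher. With such genes at their bound the list's median was 0.55. Il24 was at -4.94 and -1.21, and Il1b at -1.72 and 0.16. Ccl20 was at -4.23 and -1.98, inside the vehicle arrays, which reached -1.36. Icam1 (0.55), Ptgs2 (0.22) and Lif (-0.20) were not past 2-fold.

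Il1rl1, the receptor of interleukin 33, was not on a list and not well above background in the vehicle pool. It was at least 146-fold higher, with a second probe at 3.43. NF-kappaB feedback genes had a median of 0.60 over 10 of 16 genes, with Bcl3 at 1.57 and Birc3 at 1.14 past 2-fold and Nfkbia at -0.14. Interferon-stimulated genes had a median of -0.26 over 25 of 28 genes, with 0 higher and 3 lower, against 4.83% and 4.95% of all genes. The lower ones were Usp18 at -1.36, Oas1a at -1.34 and Irf7 at -1.09, each below every vehicle array.

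Markers of blood cells are given beside these results. Of 21 measured myeloid markers of 22 listed, 3 were past 2-fold, Itgam (not well above background in the vehicle pool, at least 2.84-fold), S100a8 at 1.95 and S100a9 at 1.07, and all 3 ANP values lay within the range of the vehicle arrays. The myeloid list had a median of 0.03, with Csf1r at 0.00, Aif1 at -0.04 and Ptprc at 0.15. Lymphocyte markers had a median of -0.20 over 14 of 18 genes with 0 past 2-fold. Globin and other red cell genes had a median of -0.35 over 12 of 14, with Rhag, not well above background in the vehicle pool, the only one past 2-fold by its measured values. Against the mean of all 8 vehicle arrays the lymphocyte median was -0.57 and that of red cell genes 0.42, the other direction. In bulk RNA, fewer cells of a type and less RNA per cell cannot be told apart, and the part of blood cells in the cytokine values was not tested.

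Targets of p53 had a median of 0.57 over 19 of 24 genes. Past 2-fold were Plk2 (1.88), Plk3 (1.54) and Tigar (1.12), 3 of the 19 against 4.83% of all genes. Mdm2, which degrades p53, was at 0.59, Bbc3, or PUMA, at 0.97 and Cdkn1a, or p21, at -0.19. Apoptosis regulators had a median of 0.06 over 21 of 22 genes, with 2 higher, against 4.83% of all genes. These were Ripk3, the kinase of necroptosis, at -0.58 in the vehicle pool and 1.87 in the ANP pool, and Bcl2l11, or BIM, at -5.53 and -4.06. Cell cycle and DNA replication genes had a median of 0.40 over 28 of 33 genes. The 4 past 2-fold (of 28, against 4.83% of all genes) were Ccne1 (2.03), Cdt1 (1.65), Mcm3 (1.33) and Mcm6 (1.01). Members not past 2-fold included Cdk1 at 0.11, Plk1 at -0.11 and Ccnd1 at -0.81. Against the mean of both vehicle pools the list's median was 0.12.

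Ribosome biogenesis genes had a median of 0.66 over 32 of 38 genes and were above 0 in 30. Of them 9 were past 2-fold, all higher and above every vehicle array, led by the box C/D proteins Nop58 (1.6 and 3.12) and Nop56 (2.92 and 4.16). In this list the spread between single animals was small. The SD of the list's median among arrays of one group was 0.03 at days 14 and 28. The cytosolic ribosomal proteins themselves had a median of 0.23 over 31 of 33 genes, and 0 passed 2-fold. Proteasome subunits showed a similar shape: all 31 measured of 32 listed were above 0, with a median of 0.44 and 0 past 2-fold. Psmd14, a deubiquitinase of the lid, was the largest at 0.91. Autophagy and lysosome regulators had a median of -0.13 over 20 genes, with 0 past 2-fold.

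Genes of the actin cytoskeleton and of SRF had a median of 0.42 over 25 of 26 genes, and all 25 were above 0. The 5 past 2-fold were mostly tubulins, which the list holds beside actin genes: Tubb6 (1.83), Tubb2a (1.57), Tubb2b (1.34) and Tuba1c (1.32), with the actinin gene Actn1 at 1.57. Tubulin genes are alike in sequence, and another probe of Tubb2b gave -0.03. Actb was at 0.26 and Srf at 0.15. Hypoxia and glycolysis genes had a median of 0.20 over 27 of 29 genes, with adrenomedullin (Adm, 1.73), hexokinase 2 (Hk2, 1.09) and P4ha1 (1.05) past 2-fold and Vegfa at -0.22.

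**Figure D2:**
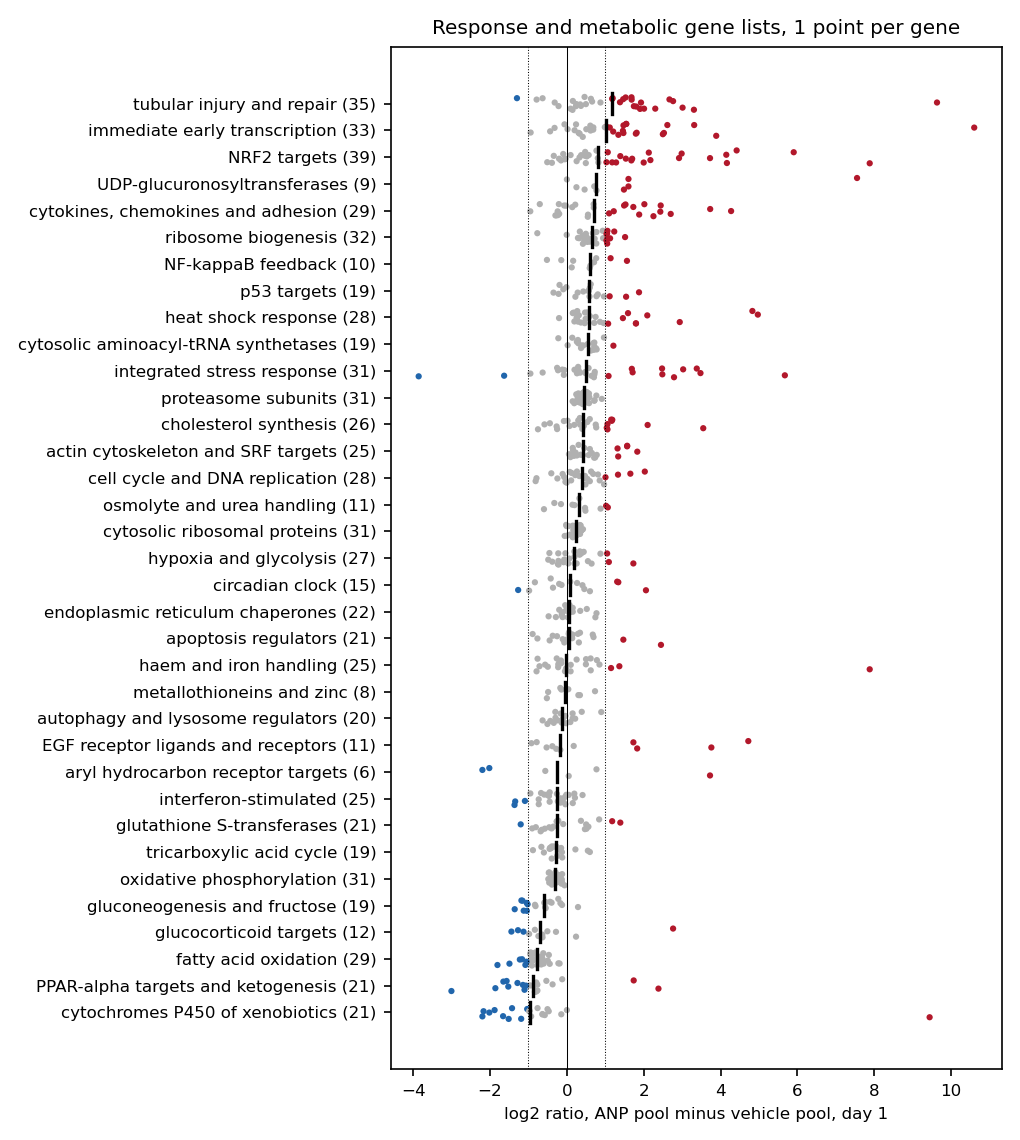
Log2 ratio (ANP pool minus vehicle pool, day 1, x axis) of every measured member of the 35 response and metabolic lists, ordered by median, with the number measured in brackets. Black bars are medians, red and blue points are past 2-fold, and the vertical spread of points within a row has no meaning. Injury genes (median 1.18) stand at the top and xenobiotic cytochromes P450 (-0.97) at the bottom.

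Cholesterol synthesis genes had a median of 0.42 over 26 genes, with 8 at least 2-fold higher and 0 lower. Insig1, the sterol-sensing regulator, was at 2.28 and 3.46, and Msmo1, a sterol methyl oxidase, at 3.94 and 5.09. The squalene epoxidase Sqle was at 1.36 and 2.41 and the mevalonate enzyme Mvd at -0.12 and 0.92, and these 4 ANP values lay above every vehicle array. Idi1 was past 2-fold at 1.06 but inside the vehicle arrays, which ran from 1.23 to 2.74. Scd, the stearoyl-CoA desaturase, lies outside the list. It was at -4.49 in the vehicle pool and 0.07 in the ANP pool, with vehicle arrays from -7.09 to -4.49, and a second probe gave a log2 ratio of 6.84.

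Markers of brown fat and uncoupling had a median of 1.22 over 11 measured of 17 listed genes, with 6 past 2-fold, 5 of them above every vehicle array. The list also holds general fat genes, among them Retn, Adipoq, Fabp4 and Lpl. Ucp1, the uncoupling protein of brown fat mitochondria, stood at -3.20 in the vehicle pool, 1.76 in the ANP pool and between -4.61 and -3.20 over the vehicle arrays, a 30.9-fold ratio. Retn, or resistin, was at -4.80 and -1.21, while Dio2, a thyroid hormone deiodinase, was not well above background in the vehicle pool and inside the vehicle range in the ANP pool. Of the other general fat genes, Adipoq was at 0.75, Fabp4 at 1.27 and Lpl at -0.68 on the log2 ratio. At day 7 Ucp1 was at -3.39 and -3.69 and no longer apart. The part of fat tissue in these values was not tested. With background correction by normexp the median of the list was 0.64, and with dim genes at their bound it was 0.75.

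Fatty acid oxidation genes had a median of -0.77, and all 29 measured of 29 listed were below 0. Of them 6 were at least 2-fold lower, against 4.95% of all genes, 5 of them below every vehicle array. Ehhadh, the bifunctional enzyme of peroxisomes, was at 3.51 and 1.71, Ech1 at 5.58 and 4.09, Eci2 at 5.31 and 4.08 and Decr1 at 6.07 and 4.91. The gatekeeper of mitochondrial import, Cpt1a, was at -0.60. The vehicle pool of day 1 was itself the highest of the vehicle arrays in this list. Relative to the mean of all 8, the list's median level was 0.27 in the vehicle pool, -0.26 in the lowest vehicle array and -0.59 in the ANP pool.

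PPAR-alpha targets and ketogenesis genes had a median of -0.87 over 21 genes, with 9 at least 2-fold lower and 2 higher, but 3 of the 9 lay below every vehicle array. The factor Creb3l3 was at 2.75 and -0.25, with vehicle arrays from -0.71 to 2.75. Vnn1, a pantetheinase, was at 4.4 and 2.88, and Fabp1, a fatty acid binding protein, at 0.05 and -1.81, both within the vehicle arrays. The list's median was -0.32 against the mean of all 8 vehicle arrays and -0.63 against both vehicle pools. Plin2, which coats lipid droplets, went the other way at 4.09 and 5.83. The uncoupling protein gene Ucp3 was not well above background in the vehicle pool and was at least 1.27-fold higher.

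Oxidative phosphorylation genes were below 0 in all 31 measured of 32 listed genes, with a median of -0.32, and 0 were past 2-fold. Sdha was at -0.48, Atp5f1b at -0.47 and Cox4i1 at -0.18. Tricarboxylic acid cycle genes had a median of -0.27 over 19 genes, with 0 past 2-fold. Genes of gluconeogenesis, fructose and amino acid breakdown had a median of -0.59 over 19 of 20 genes, with 7 at least 2-fold lower and 5 of these below every vehicle array. Ketohexokinase (Khk) was at 8.05 and 6.90, Fah, which ends tyrosine breakdown, at 5.35 and 4.31, and Dpys at 1.84 and 0.48. Pck1, the rate-limiting enzyme of gluconeogenesis, was at -0.17.

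Enzymes of drug metabolism moved in both directions. UDP-glucuronosyltransferases, which conjugate phenols, had a median of 0.77 over 9 of 19 genes, with 4 higher and 0 lower. Ugt2b7 was at -2.95 in the vehicle pool and 4.60 in the ANP pool, with vehicle arrays from -2.95 to -0.17, a 188-fold ratio. Ugt2b15 (1.6), Ugt2b37 (1.6) and Ugt2b35 (1.49) are alike in sequence, and their probes may read one another. The list's median was 0.28 against the mean of all vehicle arrays.

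Cytochromes P450 of xenobiotics had a median of -0.97 over 21 of 29 genes, with 9 lower and 1 higher, 2 of the lower ones below every vehicle array. Cyp3a9 was the higher one, not well above background in the vehicle pool and at least 147-fold higher in the ANP pool. Cyp2c11, the male-specific form, was at 1.16 and -0.50, inside vehicle arrays that ran from -2.13 to 3.99. Aryl hydrocarbon receptor targets had a median of -0.26 over 6 of 8 genes. With dim genes at their bound the medians of these lists were -0.83 and -0.20, and with normexp -0.59 and -0.08. Cyp1a1 stood at -1.52 and -3.71, again within the vehicle arrays, and against the mean of all 8 its log2 ratio was 0.14, the other direction, and Nqo1, shared with the NRF2 list, was high. Glutathione S-transferases had a median of -0.26 over 21 of 22 genes, with Gstp1 (1.39) and Gstm1 (1.18) higher and Gstz1 (-1.20) lower.

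Haem and iron genes had a median of -0.02 over 25 of 26 genes. Beside Hmox1, Bach1, the repressor that haem releases, was at -2.24 and -0.87, and the iron exporter Slc40a1 at 0.96 and 2.11. Tfrc, the transferrin receptor, was at 0.78. Metallothioneins and zinc genes had a median of -0.05 over 8 of 9 genes, with 0 past 2-fold, Mt1 at 0.34 and Mt2A at 0.04. The medians of both lists turned, to 0.21 and 0.17, against the mean of all vehicle arrays.

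Markers of the straight proximal tubule had a median of -0.95 over 23 of 24 genes, with 11 at least 2-fold lower against 4.95% of all genes, and 0 higher. Of the 11, 9 lay below every vehicle array. Slc22a7, the organic anion transporter OAT2, was at 2.59 in the vehicle pool and -0.01 in the ANP pool, with vehicle arrays from 1.09 to 3.10. Slc22a24 was at 5.16 and 3.39, and Slc22a13 at 1.56 and -0.49, the latter inside vehicle arrays that reached down to -1.56. Slc7a13 was at 7.97 and 6.77, the protease gene Mep1a at 4.86 and 3.55, and Fmo1, a monooxygenase, at 5.10 and 3.70. Members that were not lower included Slc17a1 (0.90), Cyp7b1 (0.24) and Cyp4b1 (0.06).

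The other segments were nearer 0. Convoluted proximal tubule (S1/S2) markers had a median of -0.46 over 20 genes, with 0 past 2-fold. Their median level varied among the vehicle arrays from -1.18 to 0.97 about their mean, and it was 0.26 in the vehicle pool and -0.21 in the ANP pool. The S3 list varied less, from -0.16 to 0.25, and was 0.08 in the vehicle pool and -0.91 in the ANP pool. The share of cortex in each pool was not measured, and its part in the S3 values was not tested.

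Thick ascending limb markers had a median of -0.09 over 19 of 22 genes, with Umod at -0.29. Kng2, a kininogen gene, was the exception at -0.51 and 2.29, and the prostaglandin receptor Ptger3 was at 1.11. Principal cell markers (-0.20 over 15 of 17 genes), intercalated cell markers (-0.10 over 17 of 18) and distal convoluted and connecting tubule markers (-0.26 over 10 of 14) held 3 genes past 2-fold among them. These were St6gal1 at -1.65, Calb1 at -1.33 and Slc8a1 at -1.15, the last 2 within the vehicle arrays. Thin limb and inner medulla markers had a median of 0.45 over 15 of 16 genes, with 2 past 2-fold. The osmolyte enzyme Akr1b1 was 1 of them, at 1.02 on the log2 ratio. Against both vehicle pools that median was 0.20 and that of S1/S2 -0.08. Glomerular (-0.13 over 18 genes), endothelial (-0.07 over 13 of 16) and fibroblast and matrix markers (0.09 over 15 of 19) held 0 genes past 2-fold. Against the mean of all 8 vehicle arrays the fibroblast median was 0.61 and the endothelial one 0.21, and those of thick limb, principal, intercalated and distal tubule cells turned to values from 0.02 to 0.15.

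**Figure D3:**
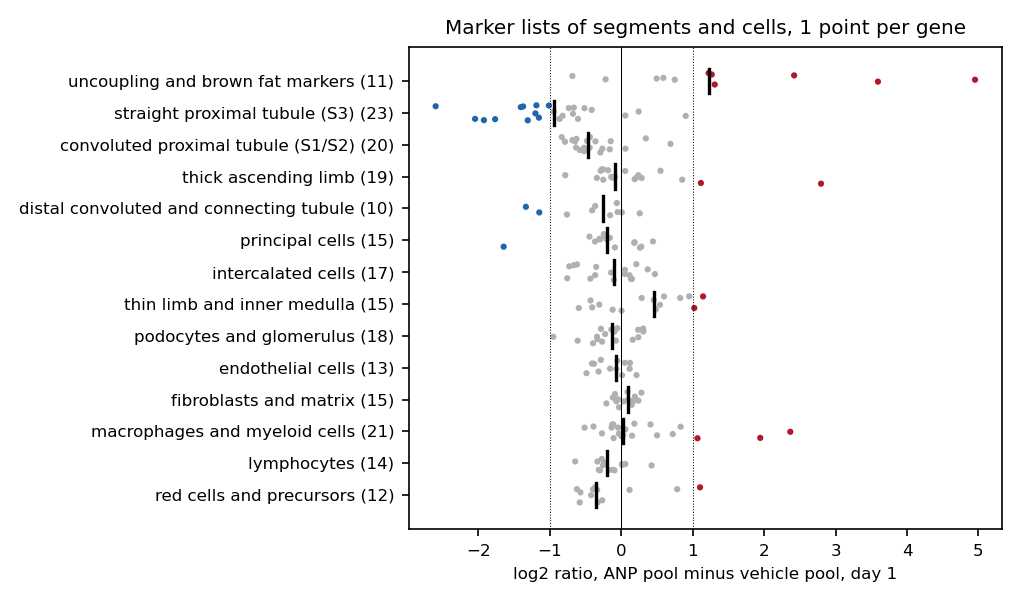
Log2 ratio (ANP pool minus vehicle pool, day 1, x axis) of every measured marker of nephron segments and other cells, with the number measured in brackets. Bars are medians, and red and blue points are past 2-fold. Markers of the straight proximal tubule lie mostly below 0 (median -0.95), while most other segments straddle it. The mixed list of uncoupling and fat markers stands highest (1.22, or 0.75 with dim genes at their bound).

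Outside the lists, the largest decreases included genes of metabolism. Cdo1, the cysteine dioxygenase that turns cysteine into sulfinate, was at 0.86 and -1.36, with vehicle arrays from 0.25 to 1.52. Ftcd, of histidine breakdown, was at 2.98 and 0.88, and the peptide transporter Slc15a2 at 2.07 and -0.09. Mbl1, a mannose-binding lectin, was at 0.02 and -2.14. Mlc1, a membrane protein, was at 2.21 and -0.66, and a second probe gave -3.26 beside -2.87. Gucy1b2, a guanylate cyclase subunit, was at 2.66 and 0.48, and Fbxo36 at -0.36 and -2.82. All these ANP values lay below every vehicle array and any other probes had the same sign. The rule for naming these genes required both, so neither is a separate check. Or2n1e and Or2n1el1 had log2 ratios of -3.41 each, but these olfactory receptors are alike in sequence and their level also varied widely among vehicle arrays (-3.34 to 0.61 for Or2n1e).

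Other large increases outside the lists were those of Sdcbp2, or syntenin 2, at -4.11 and 0.77, Glycam1, an adhesion mucin, at -1.81 and 2.61, and Pvr, the poliovirus receptor and a nectin-like adhesion protein, at -2.44 and 1.79. Ypel4 was at -5.68 and -1.35. Each lay above every vehicle array, and second probes of Sdcbp2, Glycam1 and Ypel4 gave log2 ratios of 4.25, 5.10 and 3.42. The naming rule required the position above the vehicle arrays and the sign of other probes, so neither is a separate check.

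Circadian genes had a median of 0.09 over 15 of 18 genes. Nfil3 (2.06), Ciart (1.34) and Cry1 (1.31) were higher and Tef (-1.27) lower, while Bmal1 was at 0.46 and Nr1d1 at -0.20. The list's median was -0.03 against the mean of all vehicle arrays. Glucocorticoid targets had a median of -0.69 over 12 of 13 genes, with 3 lower and 1 higher, Lcn2. Fkbp5, a sensitive target, was at 3.51 and 2.24, but 3.51 was the highest of the vehicle arrays and 1.56 the lowest. Against the mean of all vehicle arrays the list's median was -0.20. Osmolyte and urea genes had a median of 0.33 over 11 of 12 genes, with the betaine transporter Slc6a12 at 1.07.

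The day 1 genes were then followed to later days, which share no array with day 1. At days 14 and 28, groups of 3 animals were compared with limma over 11834 genes, with p-values adjusted by Benjamini-Hochberg. At day 14, 42 genes (0.355%) were called higher and 14 (0.118%) lower, and at day 28, 531 (4.49%) and 316 (2.67%). At day 28 all ANP arrays lay on 1 slide and all vehicle arrays on another, so treatment and slide cannot be told apart there. At day 14 the 3 vehicle animals and ANP animal 1 shared a slide, and ANP animals 2 and 3 lay on another. Treatment and slide thus partly coincided at day 14. With arrays scaled to their medians the day 28 split was 772 higher and 244 lower, against 531 and 316. With the slide as a random block it was 1098 and 764, and at day 14 86 and 42. Such a block cannot take a slide difference out of the day 28 comparison, where slide and treatment coincide. The counts rest on few animals. Leaving out 1 array at a time gave 0 to 46 higher genes at day 14 and 146 to 487 at day 28. At day 14 the count was 14, 3 and 0 without ANP animals 1, 2 and 3, and 2 without vehicle animal 2. Without ANP animal 3, 637 genes were higher at an unadjusted limma p under 0.05. At day 28 it was 146 without vehicle animal 1 or 2, 296 without vehicle animal 3, and 343 and 185 without ANP animals 1 and 2.

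Of 446 genes that were 2-fold higher at day 1 and were in this comparison, 17 (3.81%) were called higher at day 14 and 60 (13.5%) at day 28, against 0.355% and 4.49% of all genes. At day 28, 5 (1.12%) were called lower, against 2.67% of all genes. Leaving out 1 array at a time gave 0 to 15 of them at day 14 and 25 to 57 at day 28. In the day 7 pools 80 of all 599 were again higher by 2-fold or more (13.4%, against 2.12% of all genes). Another 27 of the 599 were lower by as much, against 2.53% of all genes. Of the 614 lower genes 81 (13.2%, against 2.53%) were again lower at day 7, and 23 were higher, against 2.12% of all genes. In both sets the share on the opposite side was thus also above that of all genes. Of 488 lower genes, 3 (0.615%) were called lower at day 14 and 38 (7.79%) at day 28, against 0.118% and 2.67% of all genes. At day 28, 20 (4.10%) were called higher, against 4.49% of all genes. Here the ranges without 1 array were 0 to 4 and 10 to 32. The median day 28 log2 ratio was 0.18 for the higher and -0.10 for the lower genes.

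Several lists held calls at day 28, when 4.49% of all genes were called higher and 2.67% lower. Of 38 NRF2 targets in the later comparison, 20 were called higher at day 28 and 0 lower. Nqo1 was at -0.90 and 2.26 in the day 7 pools and differed by 3.70 ± 0.529 (SE, n = 3 per group, limma adjusted p = 0.00701) at day 28. Pir differed by 2.70 ± 0.40 (adjusted p = 0.00735, limma, n = 3) and Akr1b8 by 5.14 ± 1.12 (adjusted p = 0.0268, limma, n = 3). Of 29 integrated stress response genes 11 were called higher at day 28, among them Mthfd2 at 2.70 ± 0.34 (limma adjusted p = 0.00474, n = 3), and of 19 tRNA synthetases 7. Glutathione S-transferases had 13 of 21 called higher, UDP-glucuronosyltransferases 6 of 9 and red cell genes 7 of 11, the last with a median day 28 log2 ratio of 1.04; the part of red cells in the other values was not tested. Areg was the one epidermal growth factor ligand so called, at 3.54 ± 0.57 (limma adjusted p = 0.00981, n = 3).

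Of 30 immediate early genes and of 32 ribosome biogenesis genes 0 were called at day 14 or day 28 by limma. At an unadjusted limma p under 0.05 there were 3 and 4 of the first list and 4 and 4 of the second. Over all 11834 genes that threshold gave 860 higher and 724 lower at day 14, and 1799 and 1323 at day 28. Heat shock genes had 1 of 27 called higher at day 14 and 2 at day 28, against 0.355% and 4.49% of all genes. Of 34 injury genes, day 14 had 1 higher call, and day 28 had 2 higher calls and 1 lower call. At day 28 4.49% of all genes were called higher and 2.67% lower. Havcr1 went from 4.59 in the ANP pool of day 1 to -0.07 at day 7, then -2.48 to -0.08 in the ANP animals of day 14 and -3.84 to -3.33 at day 28. The day 28 vehicle animals ran from -4.09 to -2.89, so the groups overlapped. Hmox1 at day 28 differed by 1.71 ± 0.905 (limma adjusted p = 0.256, n = 3), with 1 vehicle animal at 1.19.

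**Figure D4:**
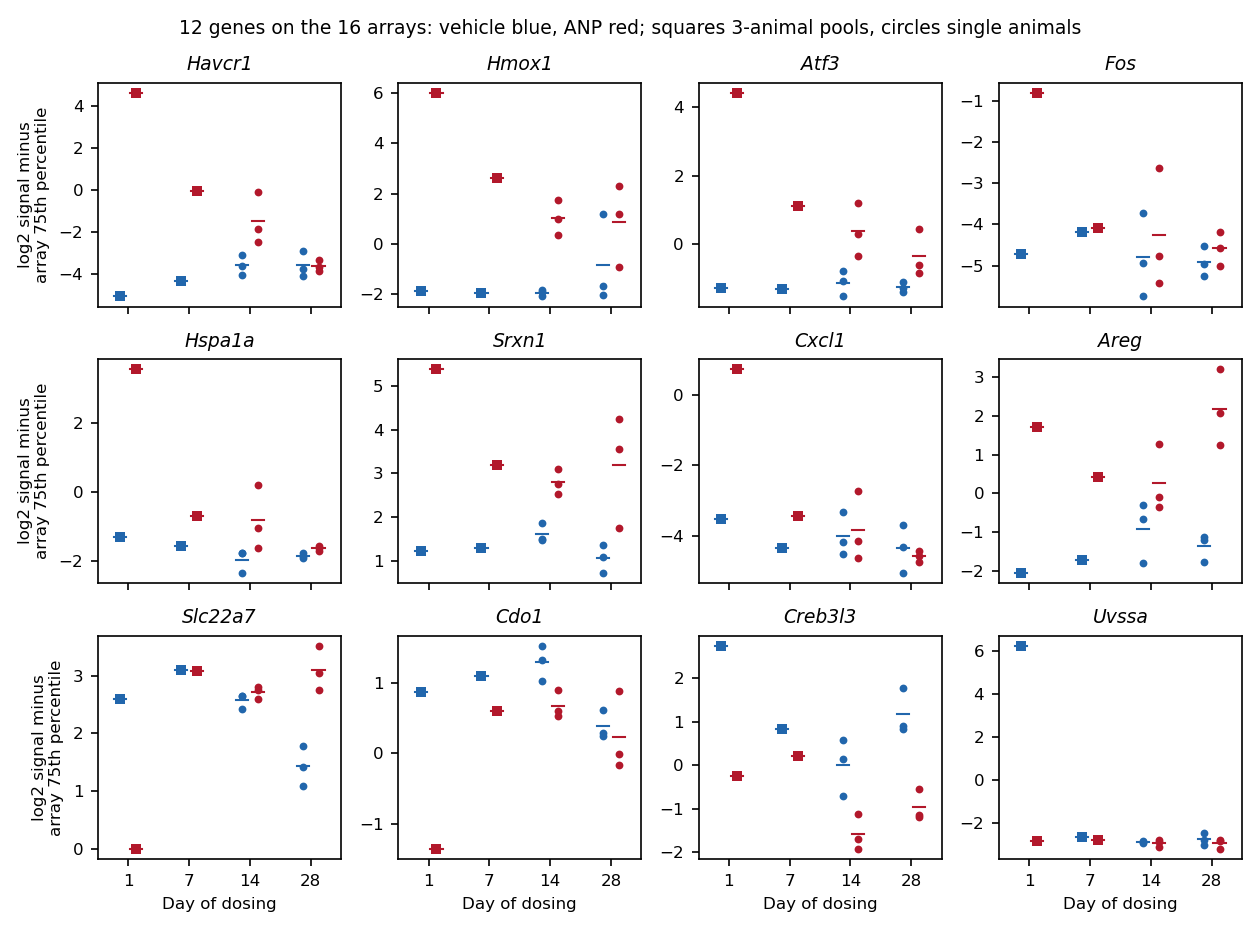
Levels (log2 signal minus the array's 75th percentile, y axis) of 12 genes on all 16 arrays by day of dosing (x axis). Vehicle is blue and ANP red, squares are pools of 3 animals, circles single animals, and bars group means. Fos, Hspa1a and Cxcl1 stand apart at day 1, Srxn1 and Areg also at day 28, and Uvssa is high in the day 1 vehicle pool alone.

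Among lower genes, 2 S3 transporters were called higher at day 28. Slc22a7 was at 3.10 and 3.09 in the day 7 pools, and at day 28 was higher by 1.68 ± 0.205 (limma adjusted p = 0.00474, n = 3), with the 3 ANP animals above the 3 vehicle animals. The difference between the days was not tested. Slc22a24 differed by 1.09 ± 0.25 (limma adjusted p = 0.0300, n = 3) at day 28. In 3 of 23 S3 markers the call at day 28 was higher and in 0 lower, against 4.49% and 2.67% of all genes. Markers of cortical cells stood lower at day 28, with median log2 ratios of -0.74 for S1/S2 (3 of 20 called lower, 1 higher), -0.51 for the glomerulus (5 of 18 lower) and -0.75 for the distal tubule (1 of 10 lower). The part of a different share of cortex in the S3 values was not tested. Lower at both times was Creb3l3, at -2.13 ± 0.37 (limma adjusted p = 0.0119, n = 3) at day 28. Cyp2c11 differed by -6.03 ± 1.26 at day 28 (limma adjusted p = 0.0233, n = 3), beside -1.66 at day 1. For both genes the ANP level of day 1 lay inside the range of the vehicle arrays. Of 29 fatty acid oxidation genes 2 were called lower at day 28, against 2.67% of all genes.

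**Figure D5:**
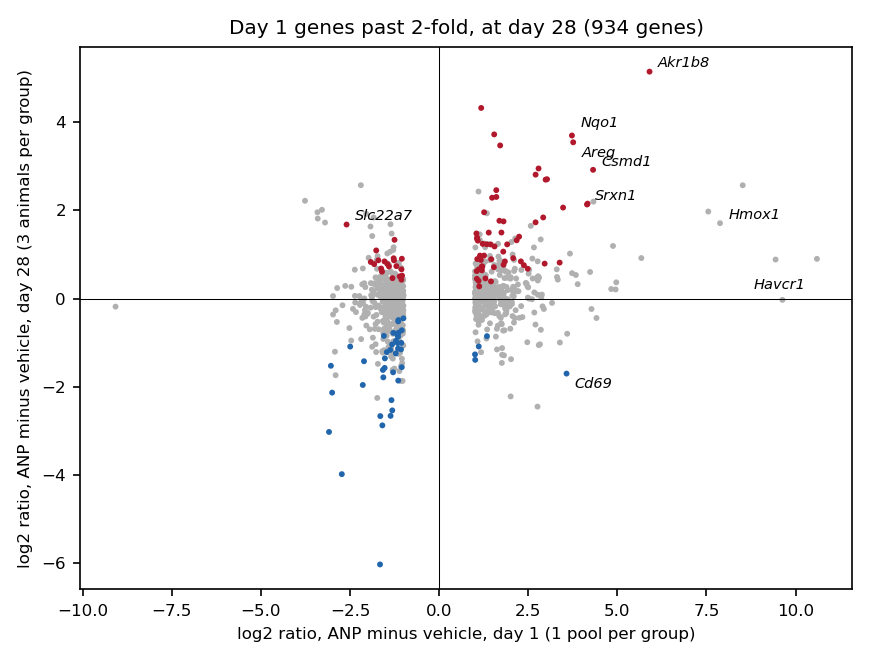
Log2 ratio at day 28 (3 animals per group, y axis) against that at day 1 (1 pool per group, x axis) for the 934 genes past 2-fold at day 1 that were in the later comparison. Red and blue points were called higher and lower at day 28 by limma. Akr1b8 was high at both, Havcr1 near 0 at day 28, and Slc22a7 changed side.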

How the data were processed

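RNA of rat renal outer medulla was hybridised to 1-colour (Cy3) Agilent arrays. The intensity values are the processed signals of Agilent Feature Extraction 10.7, which the authors deposited background-subtracted, per the file headers and the submitters' processing notes. The authors' deposited value table holds linear ratios that track each array's signal divided by its 75th percentile (r at least 0.9999 on the log2 scale; column medians 0.099 to 0.108).

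Here log2 signals were set against each array's 75th percentile, and control spots and outlier flags were left out. Probes were named through RefSeq accessions: 27447 probes matched 15278 genes (GRCr8) and 34210 stayed unnamed. Each gene was read from its brightest probe on average over the 12 arrays of days 14 and 28, and was measured at day 1 if well above background on at least 1 pool. An "at least" fold takes, for the dim array, the probe's own signal or the lowest signal there that was well above background, whichever was higher. Days 14 and 28 were fitted with limma 3.58.1 in R 4.3.3, all 4 groups in 1 fit, with Benjamini-Hochberg adjustment and a threshold of 0.05; the code was tested on simulated data. The animals of days 14 and 28 are separate samples per the labels.

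Genes were named by rule: the 20 largest day 1 ratios per direction outside the 8 vehicle arrays with probes of one sign, up to 6 bounds per direction, up to 8 members of each of 49 lists and members not past 2-fold, up to 10 genes whose vehicle pool stood apart, up to 6 whose probes disagreed, and up to 10 per direction shared with day 28 or up to 6 opposed. Members and lists were chosen with earlier results of these data known. The files hold no mean signal, so the normexp alternative used the median signal (offset 50). Other alternatives were median and quantile scaling, the value table, other probe and detection rules, other vehicle references, blocks and left-out arrays. A few genes are not reported here.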

Additional observations from a re-analysis of the deposited data

Results flagged for a closer look

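Among 22660 measured probes without a gene name, 1070 were higher in the ANP pool of day 1 by 2-fold or more and 1331 were lower by as much. They entered no comparison above, and no control without treatment was set against them.

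Of genes 2-fold higher at day 1, 5 of 446 (1.12%) were called lower at day 28 by limma (n = 3 per group), against 2.67% of all genes. Of lower genes 20 of 488 (4.10%) were called higher, against 4.49%. Neither share is above that of all genes, and the difference between the days was not tested. The 5 were Cd69 (-1.70 on the log2 ratio of day 28), Lhfpl2 (-1.39), Mlph (-1.27), Dcdc2 (-1.09) and Snx10 (-0.85). Of the 20, the 6 with the largest day 1 ratios among genes with a full symbol were Slc22a7 (1.68), Slc22a24 (1.09), Mog (0.87), Sspo (0.83), Abcc8 (0.78) and Ly9 (0.68). Day 1 rests on 1 pool per group, and at day 28 group and slide cannot be told apart.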

How the results depend on the processing

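Of 490 list medians recomputed under 10 alternatives, 433 moved by less than the spread between replicates. Against the mean of all 8 vehicle arrays the medians were 0.62 (NRF2), 0.50 (p53), 0.33 (proteasome), -0.59 (fatty acid oxidation), -0.32 (PPAR-alpha), 0.28 (UDP-glucuronosyltransferases), -0.76 (cytochromes P450), -0.00342 (aryl hydrocarbon receptor), 0.21 (haem and iron), 0.17 (metallothioneins), 0.92 (brown fat), -0.0349 (circadian), -0.20 (glucocorticoid), 0.49 (osmolyte), 0.0728 (thick limb), 0.15 (distal convoluted tubule), 0.0161 (principal cells), 0.0716 (intercalated cells), 0.0310 (glomerulus), 0.21 (endothelium), 0.61 (fibroblasts), -0.57 (lymphocytes) and 0.42 (red cells). Against both vehicle pools they were 0.12 (cell cycle), 0.72 (ribosome biogenesis), -0.66 (fatty acid oxidation), -0.63 (PPAR-alpha), -0.0768 (S1/S2), 0.20 (thin limb) and 0.0762 (glomerulus). With the mean of all probes they were 1.03 (NRF2), 0.11 (EGF receptor), 0.73 (ribosome biogenesis), -0.9998 (PPAR-alpha), -0.81 (gluconeogenesis), 0.24 (hypoxia), 1.12 (UDP-glucuronosyltransferases), -0.52 (aryl hydrocarbon receptor), 0.11 (haem and iron) and 0.47 (osmolyte). With normexp they were 0.92 (injury), 0.47 (heat shock), 0.50 (p53), 0.70 (ribosome biogenesis), 0.13 (hypoxia), -0.59 (cytochromes P450), -0.0846 (aryl hydrocarbon receptor), 0.0535 (haem and iron) and 0.64 (brown fat). Median scaling gave 0.62 (p53), 0.71 (ribosome biogenesis) and 0.25 (hypoxia), quantile scaling 0.0328 (haem and iron), detection on both arrays 0.0491 (aryl hydrocarbon receptor) and 0.99 (brown fat), and no filter -0.70 (cytochromes P450) and 0.75 (brown fat). The causes were not tested.

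At day 1, normexp gave 351 higher and 314 lower genes, 338 above and 246 below every vehicle array, and no filter gave 643 below. Of 4318 values of 435 named genes 7 reversed, which was counted only for the 219 genes past 2-fold. Another 603 moved by at least the spread between later animals or had no such spread. Of the 219, 166 kept their sign and 2-fold against the mean of all 8 vehicle arrays. With normexp 173 did so, and with quantile scaling 219. Against all vehicle arrays the reversals were Abcg5 0.0224, Cyp1a1 0.14, Pcdhgb8 0.25 and Prox1 0.45. With all probes averaged they were Hsd3b2 -0.57 and Plscr5 0.23, and with the brightest day 1 probe Plscr5 3.02.

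At days 14 and 28 the deviations of same-numbered animals from their group means had correlations from -0.07 to 0.14, and the main fit did not pair them. With 3 such pairs per day, these correlations cannot show that no pairing exists. The replicate block gave 23 higher genes at day 14, 9 and 5 of the day 1 genes among those called higher and lower. In the other fits, the counts at day 14 were as follows, for genes higher, lower, and day 1 genes among them. Normexp gave 67, 47 and 14 lower, quantile scaling 23 lower and 5 of day 1, a random slide block 86, 42, 33 and 16, the 2 groups of the day alone 12, 8 and 10, and no filter 21, 7, 8 and 1. At day 28 the slide block gave 1098, 764, 98 and 62, normexp 572 lower and the 2 groups alone 216 higher. Leaving out 1 array gave 0 to 46 higher and 1 to 26 lower genes at day 14, with 0 to 15 and 0 to 4 day 1 genes, and 146 to 487 higher and 58 to 271 lower at day 28, with 25 to 57 and 10 to 32 day 1 genes. Of 676 later values of named genes 211 lost their call and 0 reversed.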
